A study of Oryza sativa with 12 samples.

Results

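Leaves of the rice line Nongken 58S were compared between short days (SD) and long days (LD) at the glume primordium differentiation stage, on 6 of the 12 arrays of the series. This japonica line makes sterile pollen when days are long, and a single genotype was examined, without Nongken 58, the fertile cultivar it comes from. The groups are G-SSD (SD, 10 h light and 14 h dark, n = 3) and G-SLD (LD, 15 h light and 9 h dark, n = 3). Both groups had the same history. Plants with more than 5 leaves were first given SD for 10 to 12 days, which moved them into reproductive growth, and were divided between SD and LD when secondary branches were differentiating. The second fully expanded leaf was taken at 02:00 h as biological triplicates, and hybridised to the Affymetrix GeneChip Rice Genome Array. With 1 clock time, a different level and a shifted daily rhythm of a cycling gene cannot be told apart, and because leaves are bulk tissue, fewer cells of a type and less RNA per cell cannot be told apart either. The remaining 6 arrays hold the later pistil/stamen primordium forming stage.

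Rice is a short-day plant, and the leaf is the organ in which day length is read. Light signals and the circadian clock set the level of Ehd1 in the leaf, Ehd1 in turn activates florigen genes such as Hd3a, and the florigen protein travels to the shoot apex, where MADS-box genes of the flower are switched on. The clock itself runs on MYB factors of the LHY type, which peak around dawn, and on genes such as GIGANTEA, the pseudo-response regulators and LUX, which peak later in the day or in the evening. In Nongken 58S, the sensitive period for pollen sterility falls within panicle development.

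The array-wide table held 57381 probe sets, with linear signals and no gene names. Array medians at the glume stage ran from 7.6 to 8.67. The correlation of log2 signals across probe sets was 0.902 to 0.932 within G-SSD, 0.88 to 0.932 within G-SLD and 0.886 to 0.944 between them, so an array resembled those of the other day length about as much as those of its own. Probe sets are not replicates, so these values carry no test. Repeat 3 of LD had the lowest mean correlation with its own group, 0.888, and the lowest weight of the 6 arrays in limma's array weights, 0.618. The 3' over 5' ratio of the actin control, a sign of RNA or labelling quality, was 18.3, 23.8 and 10.1 on the SD arrays, against 14.4, 10.2 and 13.8 on the LD arrays. For GAPDH it was 12.7, 26.4 and 1.52 on the SD arrays, against 0.661, 10.4 and 1.64 on the LD arrays. The EF1a control gave 0.101 to 0.517 in SD and 0.04 to 0.789 in LD, and cyclophilin 1.68 to 2.64 in SD and 0.808 to 1.79 in LD. Their part in the results was not tested.

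After quantile normalisation of the log2 signals, 2 of 25360 probe sets differed between SD and LD at an adjusted p under 0.05 (limma with Benjamini-Hochberg adjustment, 0.00789% of those tested), and both rose in SD. The first, Os.13026.1.S1_at, read 410.2, 560.02 and 451 on the SD arrays, against 6.52, 1.15 and 4.55 on the LD arrays. Its difference was 7.18 ± 0.76 on the log2 scale (SE, adjusted p = 0.01286), but the LD signals lay below the array medians, and with 16 added to each signal the difference was 4.61. The second, Os.10941.1.S1_at, read 356, 389.87 and 449 on the SD arrays, against 60.4, 48.4 and 29.1 on the LD arrays, a difference of 3.17 ± 0.34 (SE, adjusted p = 0.01286). The SD arrays were far above every LD array for both, and the files do not pair either probe set with a gene. The next probe set, Os.15230.1.S1_at, had an adjusted p of 0.169. Neither call held when any SD array, or LD repeat 2 or 3, was left out, or when the 6 glume-stage arrays were fitted without the other stage and without array weights. With array weights on those 6 arrays, Os.13026.1.S1_at passed (adjusted p = 0.04766) and Os.10941.1.S1_at did not (adjusted p = 0.05226).

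At an unadjusted p under 0.05, 558 probe sets differed, of which 168 were at least 2-fold higher in SD (0.662%) and 114 at least 2-fold lower (0.45%). Without regard to p, the ratio of mean signals was at least 2 for 401 probe sets and at most 0.5 for 444. All 3 SD arrays lay above all 3 LD arrays for 1138 probe sets (4.49%) and below them for 988 (3.9%), and 215 and 160 of these also reached a 2-fold ratio. The median log2 difference over all probe sets kept was -0.0028. The difference between SD and LD was then set against the same difference at the pistil/stamen stage, and 0 probe sets passed the adjusted threshold for a change between the stages, with 906 at an unadjusted p under 0.05 (limma).

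Gene names came from a second table, in which the authors deposited their own signals for 105 genes whose fold between SD and LD at this stage was at least 2 or at most 0.5. Its signal columns carry the letter of the other stage, but they were read as glume-stage arrays because the table is deposited for that comparison. Of these genes, 57 had the higher signal in SD and 48 the lower. Counts of higher and lower genes within functional groups are to be read beside these, and no group was tested. The median ratio was 2.37 (SD over LD) among the genes higher in SD and 2.99 (LD over SD) among those lower. Since a 2-fold difference on these same arrays chose the genes, their ratios are a description and not a test. The members nearest the limit were the unknown protein LOC_Os01g23990 at a ratio of 2 and the kinase SAPK9 at 0.493. Genes outside the limit are not in the table, and genes past the fold with a larger P may be missing as well.

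The SD and LD arrays did not overlap for 101 of the 105 genes, 56 of them higher and 45 lower in SD. On the whole array 4.49% and 3.9% of probe sets separated in this way. Among probe sets with a ratio of at least 2, whatever their p, 215 of 401 did so, and among those with a ratio of at most 0.5, 160 of 444. The listed share is shaped by the choice by fold, and probably by P, on these same arrays. It is therefore not a result about the genes. For 23 genes even the nearest SD and LD signals were at least 2-fold apart. As a stricter bar, limma p-values of the listed genes were adjusted for 57194 tests, the number of probe sets without the controls, and 2 genes passed this test over the array at 0.05 (1.9% of those listed), both of them higher in SD. One is Hd3a. The spread in this fit was learned from the listed genes alone. All 105 genes had an unadjusted limma p under 0.05 in this fit. The methods describe a further limit of P under 0.05 after the fold limit. Choice of the genes by fold, and probably also by P, can make the p-values too small. Genes that missed this bar are given by their values and directions, and missing it does not show that a gene was alike in SD and LD.

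The flowering genes showed the widest separation. Hd3a, the florigen gene of rice and a relative of Arabidopsis FT, read 743, 865 and 825 on the SD arrays, against 10.5, 10.4 and 12.5 on the LD arrays. The SD mean was 811 ± 62.4 and the LD mean 11.1 ± 1.19 (standard deviation, n = 3 each). Hd3a rose 73.1-fold in SD, by 6.19 ± 0.27 on the log2 scale (SE, adjusted p = 0.00049 over the array, limma). Its lowest SD signal was 59.6 times its highest LD signal, and the 3 same-numbered repeats gave ratios of 71.1, 83.5 and 66.2. Hd3a passed in every alternative fit and with any array left out. These fits reuse the arrays by which the gene was listed, so they are not independent support. The size of the fold depends on how the dim LD signals are treated, since adding 16 to each signal lowers the ratio to 30.5.

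Ehd1, the B-type response regulator that activates Hd3a, read 216, 116 and 367 on the SD arrays, against 8.49, 10.4 and 12.3 on the LD arrays. The SD mean was 233 ± 127 and the LD mean 10.4 ± 1.9, a ratio of 22.4, or 9.44 with 16 added to each signal. The SD arrays varied among themselves by more than 3-fold, all of them far above LD, and Ehd1 did not pass the test over the array (log2 difference 4.35 ± 0.41, adjusted p = 0.089). OsMADS1, a SEPALLATA-like MADS-box gene known for its role in the lemma, palea and inner floral organs, read 914, 938 and 1057 on the SD arrays, against 153, 133 and 49.4 on the LD arrays. The SD arrays were tight and LD repeat 3 was well below the other LD arrays. The ratio was 8.68 and the adjusted p 0.63 over the array. A set of 15 flowering genes drawn up for this comparison had these 3 members in the table, all higher in SD. The gene sets looked for here and below were drawn up with earlier results of these data known. Their counts in the table therefore carry no test.

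**Figure D1:**
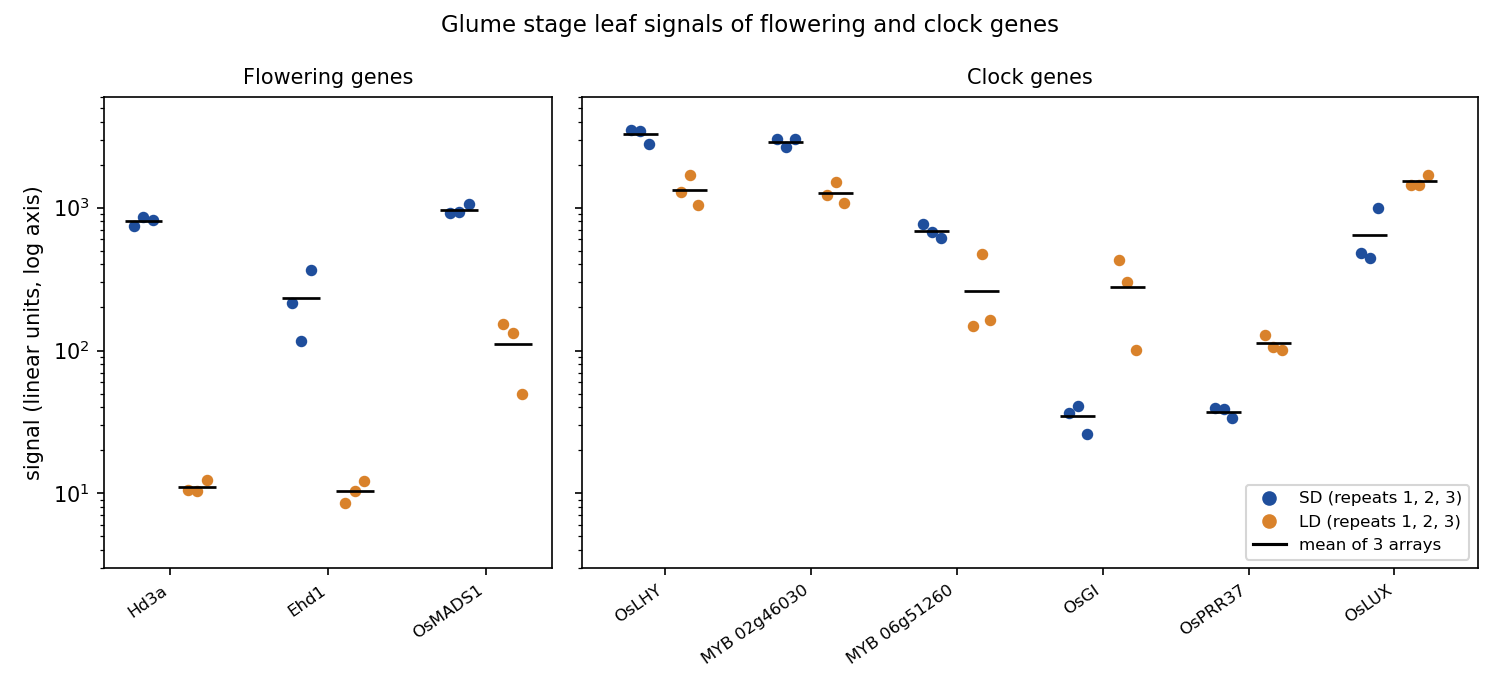
Signal on each array (linear units on a log axis) of the flowering genes, left, and the clock genes, right, with SD arrays in blue, LD arrays in orange and a bar at each mean of 3 arrays. Hd3a lies at 743 to 865 in SD and 10.4 to 12.5 in LD, and the clock genes divide into 3 that were higher and 3 that were lower in SD.

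The clock genes went both ways. Of 16 clock genes looked for, 6 were in the table, which held 105 genes from an array of 57194 probe sets without the controls. Probe sets are not paired with genes, so these shares are in unlike units and cannot be compared directly. Of the 6 listed clock genes, 3 were higher and 3 lower in SD, none past the test over the array. The higher ones were the MYB genes. OsLHY, the rice relative of Arabidopsis LHY, read 3516, 3463 and 2801 on the SD arrays, against 1292, 1686 and 1038 on the LD arrays, a ratio of 2.44. LOC_Os02g46030, a MYB gene annotated after Arabidopsis CCA1, read 3033, 2645 and 3012 on the SD arrays, against 1228, 1522 and 1077 on the LD arrays, a ratio of 2.27. Both had tight SD arrays, and in both LD repeat 2 was the highest and repeat 3 the lowest of the LD arrays. LOC_Os06g51260, the third MYB gene, read 772, 673 and 614 in SD and 149, 475 and 162 in LD, a ratio of 2.62. LD repeat 2 came closest to SD here, at a same-number ratio of 1.42, while the other repeats gave 5.16 and 3.78, and without that array the ratio was 4.4.

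The lower clock genes belong to the day and evening side of the oscillator. OsGI, which encodes GIGANTEA, an evening clock protein that also feeds into Hd1 and Ehd1, read 36.7, 41.2 and 26.2 on the SD arrays, against 432, 303 and 101 on the LD arrays. Its LD mean was 8.03 times its SD mean, and the LD arrays spread more than 4-fold. OsPRR37, a pseudo-response regulator that delays heading in long days, read 39.7, 38.8 and 33.6 in SD and 129, 106 and 101 in LD, a ratio of SD over LD of 0.333. It was even between repeats, with same-number ratios of 0.307, 0.368 and 0.331 and an adjusted p of 0.93 over the array. OsLUX (LOC_Os01g74020, annotated as ARR1-like), whose Arabidopsis relative is part of the evening complex, read 485, 442 and 996 in SD and 1452, 1435 and 1690 in LD, with SD repeat 3 nearer to LD than the other SD arrays. None of 6 photoreceptor genes looked for was in the table.

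Of 7 further transcription factor genes, 5 were higher and 2 lower in SD. OsDof, which encodes a Dof-type zinc finger factor, read 843, 738 and 477 on the SD arrays, against 86.3, 252 and 53.1 on the LD arrays, a ratio of 5.26. LD repeat 2 was several times the other LD arrays, and the same-number ratio was 2.93 for repeat 2 against 9.77 and 8.99 for repeats 1 and 3. Without LD repeat 2 the ratio was 9.84. A second Dof-type gene, annotated as H-protein promoter binding factor-2a (LOC_Os10g26620), was 2.07-fold higher, at 672, 437 and 414 in SD and 215, 310.3 and 212 in LD. Hox22, a homeodomain-leucine zipper gene, was 2.4-fold higher, LOC_Os08g08120, annotated as a zinc ion binding factor, 2.5-fold, and LOC_Os05g11510, annotated as salt tolerance-like after an Arabidopsis B-box protein, 2.11-fold. The lower ones were DREB1A, an AP2-type factor of cold and drought responses, with a ratio of 0.358, and mybHv5 (LOC_Os05g35500), named after a barley MYB gene, with a ratio of 0.46. DREB1A read 58.8, 141 and 54.6 in SD and 189, 179.5 and 341 in LD, so that repeat 2 separated least, at a same-number ratio of 0.783.

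The table held 3 entries annotated as rpoD-type sigma factors, which in plants are nuclear-encoded proteins that guide the plastid RNA polymerase to its promoters. They did not share a direction. AK105697 read 1017, 988 and 707 on the SD arrays, against 346, 388 and 214 on the LD arrays, a ratio of 2.86. AB096011 read 308, 236 and 189 in SD, against 126, 118 and 36.3 in LD, a ratio of 2.61 that rests in part on LD repeat 3. LOC_Os05g51150 ran the other way, with 43.3, 45.6 and 45.9 in SD and 162, 92.3 and 170.2 in LD, a ratio of 0.318, and its SD arrays agreed closely.

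Both thiamine genes in the table were lower in SD, out of 3 looked for. THI1, which makes the thiazole part of thiamine, read 56.9, 107 and 117 on the SD arrays, against 406, 309 and 401 on the LD arrays. Its ratio was 0.252, with a log2 difference of -2.05 ± 0.37 that did not pass the test over the array. ThiC, which makes the pyrimidine part, read 55.3, 91 and 98 in SD and 237, 188 and 424 in LD, a ratio of 0.288. SD repeat 1 was the lowest of the SD arrays in both genes, and the highest SD signal stayed below the lowest LD signal in both.

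The listed starch synthase genes were on the other side. Of 10 starch synthase genes looked for, 3 were in the table, and these 3 were higher in SD, none past the test over the array. The direction of those not listed is not known from the table. GBSSII, the granule-bound enzyme that makes amylose in leaves, read 449, 643 and 589 on the SD arrays, against 152, 215 and 318 on the LD arrays, a ratio of 2.45. SSIIIb, annotated as soluble starch synthase 3, read 497, 832 and 563 in SD and 330.3, 284 and 299 in LD, and SSI, another soluble enzyme, read 138, 209.9 and 177 in SD and 69.1, 68.7 and 121 in LD. Their ratios were 2.07 and 2.03, close to the limit for listing, and for SSI the nearest SD and LD signals differed only 1.14-fold. A further 3 genes of sugar and carbon metabolism were also higher in SD by 2.01 to 2.31-fold: pyruvate dehydrogenase kinase (PDK), which switches off the pyruvate dehydrogenase complex, a hydrolase of O-glycosyl compounds (LOC_Os01g43220), and inositol-3-phosphate synthase, the first enzyme of inositol synthesis. The other two were lower. A gene of the phosphoglucomutase and phosphomannomutase family (LOC_Os06g28194) read 119, 123 and 131 in SD and 345, 484 and 322 in LD, a ratio of 0.324, and stachyose synthase, which builds raffinose-family sugars, had a ratio of 0.411 with SD arrays spread from 110.1 to 375.

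All 4 genes grouped under lipids and choline were higher in SD, beside 57 of all 105 listed genes. The choline transporter-related gene LOC_Os02g36960 read 321, 339 and 375 on the SD arrays, against 97.3, 84.7 and 98.7 on the LD arrays. Its ratio was 3.69 and even its nearest arrays were 3.26-fold apart, yet the adjusted p over the array was 0.92. PEAMT, phosphoethanolamine N-methyltransferase, which makes the phosphocholine that plant choline derives from, read 1171, 997 and 1108 in SD and 498, 544 and 375 in LD, a ratio of 2.31. OsFAD7, the plastid omega-3 desaturase that makes trienoic fatty acids, read 84.6, 90.3 and 64.2 in SD and 22.9, 17.4 and 22.2 in LD, a ratio of 3.82 with an adjusted p of 0.38. Phosphatidylinositol 4-kinase (LOC_Os11g10420) was 2.25-fold higher, and its nearest SD and LD arrays differed by 1.07-fold only.

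**Figure D2:**
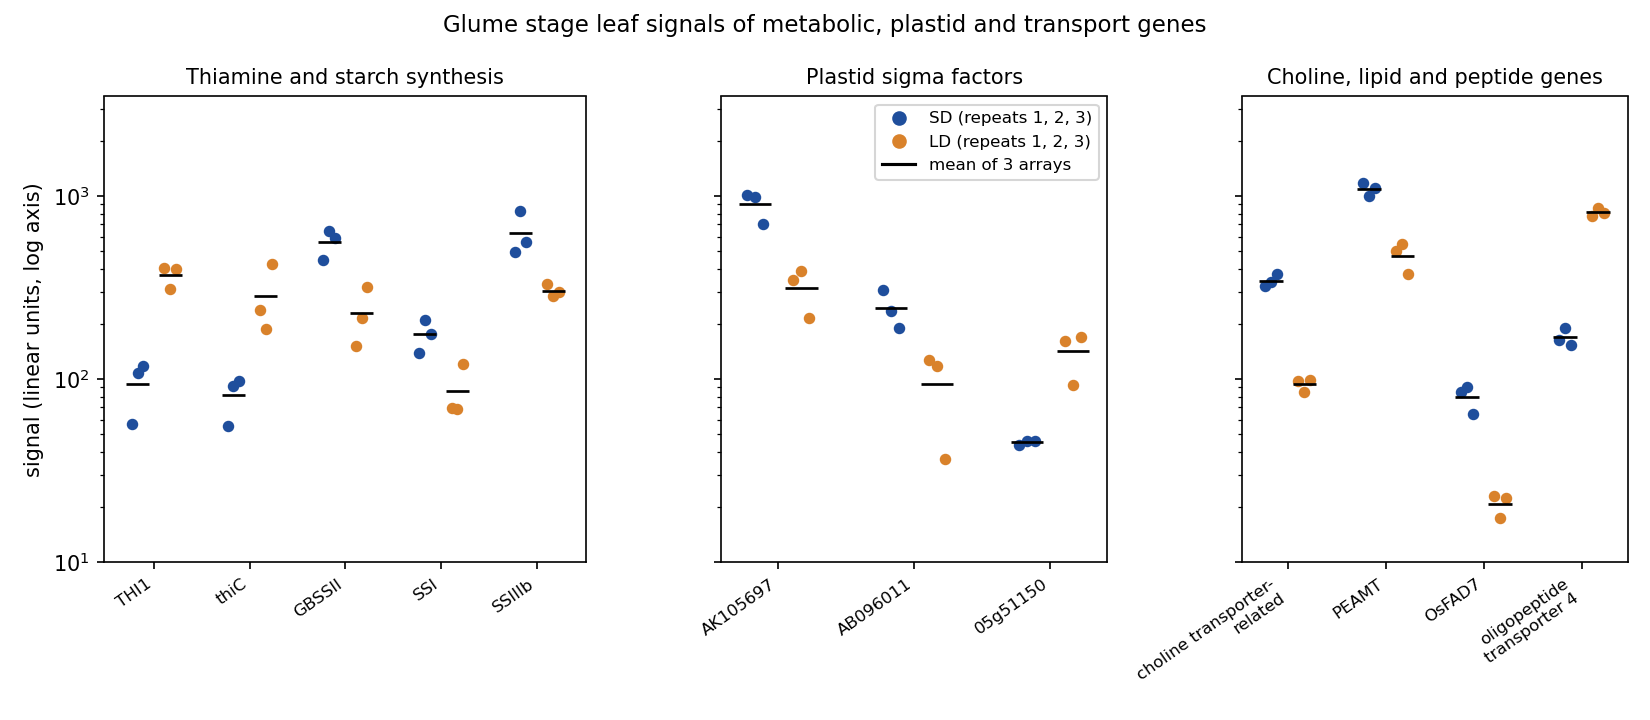
Signal on each array (linear units on a log axis) of thiamine and starch synthesis genes, plastid sigma factors, and choline, lipid and peptide transport genes, with SD arrays in blue, LD arrays in orange and a bar at each mean of 3 arrays. THI1, thiC, LOC_Os05g51150 and oligopeptide transporter 4 lie lower in SD, and the other genes lie higher.

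Of 11 transport genes, 8 were higher and 3 lower in SD, beside 57 and 48 of all 105 listed genes. The most even of the higher ones was the folate/biopterin transporter LOC_Os07g24230, with 123, 113 and 97.4 on the SD arrays and 38.3, 36.4 and 38.2 on the LD arrays, a ratio of 2.95. A ferric reductase-like gene (LOC_Os04g36720) was as steady, with 941, 906 and 927 in SD and 353, 358 and 434 in LD. The amino acid-polyamine transporter LOC_Os03g14910 had a similar ratio, 3.08, but LD repeat 2 read 286 beside 99.2 and 81.9, and without it the ratio was 5.29. RXW8 was 3.1-fold higher, cyclic nucleotide-gated ion channel 15, a cation channel, 2.52-fold, and ATATH5, the tonoplast dicarboxylate transporter and the lrgB-like gene 2.05 to 2.23-fold. Among the lower genes, oligopeptide transporter 4 (LOC_Os02g46850) read 164, 189 and 154 in SD, against 779, 864 and 812 in LD, a ratio of 0.206. Its arrays were at least 4.13-fold apart, and its adjusted p was 0.38 over the array. The amino acid transporter LOC_Os01g43040 had a ratio of 0.389, and LOC_Os10g38910, annotated as an ABC-type cobalt transport system, 0.493.

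Among heat shock and DnaJ genes, 4 of 5 were lower in SD, beside 48 of all 105 listed genes. The heat shock factors, of a family that includes activators of chaperone genes, did not share a direction. RHSF7 read 234, 635 and 291 on the SD arrays, against 120.4, 146 and 116 on the LD arrays, a ratio of 3.04 in which SD repeat 2 stands above the others. RHSF11 read 132, 147 and 116 in SD and 244, 449 and 220.1 in LD, a ratio of 0.434. The 3 genes with DnaJ domains, which are partners of Hsp70 chaperones, were all lower. LOC_Os06g28050, which also carries a ferredoxin domain, had a ratio of 0.254, LOC_Os04g57880 of 0.315 and LOC_Os03g18870 of 0.345, and LD repeat 2 was the highest array in the first and the last of these. Without SD repeat 3 the ratio of LOC_Os04g57880 was 0.199.

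Of 11 kinases and other signalling genes, 7 were lower in SD, beside 48 of all 105 listed genes, and none passed the test over the array. MIB2 (LOC_Os02g38970), annotated as a ubiquitin ligase, read 38.7, 41.3 and 35.5 on the SD arrays, against 181, 145 and 157 on the LD arrays, a ratio of 0.239 with the arrays at least 3.51-fold apart. Receptor-like protein kinase 5 (LOC_Os02g13430) read 80.3, 30.2 and 109 in SD and 312, 383 and 395 in LD, a ratio of 0.201. Lectin receptor kinase 1 had a ratio of 0.238, a second ubiquitin ligase (LOC_Os08g02850) 0.367 and CIPK15, a kinase that works with calcineurin B-like calcium sensors, 0.452. SAPK9, a kinase of the SnRK2 family that responds to osmotic stress, had a ratio of 0.493. The EF hand gene LOC_Os03g29770, a presumed calcium binding protein, had a ratio of 0.327, but its highest SD array, 389, lay above its lowest LD array, 376.

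The higher signalling genes were OsWAK36, the seven-transmembrane-domain protein 1, the RPT2-like gene and rac GTPase activating protein 1. OsWAK36, a wall-associated receptor kinase, read 348, 278 and 70.5 on the SD arrays, against 59, 26.6 and 48.6 on the LD arrays. Its ratio of 5.18 is carried by SD repeats 1 and 2, and the same-number ratio of repeat 3 was 1.45. The RPT2-like gene (LOC_Os11g02610), whose Arabidopsis namesake acts in phototropin signalling, read 834, 744 and 810.1 in SD and 289, 455 and 151 in LD, a ratio of 2.67. Seven-transmembrane-domain protein 1 was 3.01-fold higher and rac GTPase activating protein 1 2.37-fold.

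Redox genes went both ways, 3 higher and 5 lower in SD. Thioredoxin-like 5 (LOC_Os02g53400) read 14.5, 32.4 and 34 on the SD arrays, against 96.3, 89.6 and 93.1 on the LD arrays, a ratio of 0.29. Catalase isozyme A, which breaks down hydrogen peroxide, had a ratio of 0.425, but SD repeat 3 read 734 and LD repeat 2 read 692, so the groups overlapped. The glutathione S-transferase GSTU6, a blue copper protein and cytochrome P450 76C2 had ratios of 0.379 to 0.44. OsGrx_C7.2, a glutaredoxin, NADPH quinone oxidoreductase 2 and retinol dehydrogenase 11 were 2.21 to 2.76-fold higher.

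Among 11 genes of other functions, 5 were higher and 6 lower in SD. YciO (LOC_Os08g41910), annotated after a bacterial protein, read 36.5, 50.5 and 44.2 on the SD arrays, against 423, 255 and 342 on the LD arrays. Its LD mean was 7.78 times its SD mean, its nearest arrays were 5.05-fold apart, and its adjusted p of 0.19 over the array was the lowest among the genes with lower signal in SD. Gibberellin 2-beta-dioxygenase (LOC_Os01g55240), which inactivates gibberellins, read 34.3, 36.4 and 29.9 in SD and 60.8, 185 and 127 in LD, a ratio of 0.27. The gamma-thionin gene LOC_Os03g03810, annotated as flower-specific, read 287, 101 and 83.5 in SD and 349, 564 and 484 in LD, a ratio of 0.337, or 0.198 without SD repeat 1. The HAT and TPR motif gene of RNA processing had a ratio of 0.447, and SRC2 and the ligase LOC_Os09g21230 0.47 and 0.462. Protease inhibitor II was 3.82-fold higher, protein arginine N-methyltransferase 6 2.38-fold, and the splicing factor SF2, transmembrane protein 16K and cysteine protease 1 2.02 to 2.06-fold. The LD repeat 2 signals of protein arginine N-methyltransferase 6 and SF2, 206 and 586, came close to SD, and without that array their ratios were 5.14 and 3.28.

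No function was known for 25 genes, of which 12 were higher and 13 lower in SD. LOC_Os10g25060 had the lowest ratio among them, 0.161, from 36.7, 24.1 and 57.2 on the SD arrays and 67, 336 and 327 on the LD arrays, so LD repeat 1 lay next to the SD arrays. LOC_Os03g15920, LOC_Os05g38880, LOC_Os05g05030 and CT834083 had ratios of 0.235 to 0.283 with the nearest arrays 2.07 to 2.95-fold apart, and without SD repeat 3 the ratio of CT834083 was 0.125. LOC_Os08g41850 had a ratio of 0.224, but LD repeat 2 read 146 beside 634 and 855. LOC_Os03g12700, 3.88-fold higher, overlapped between the groups, at 60.9 in SD repeat 3 and 61.1 in LD repeat 2.

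**Figure D3:**
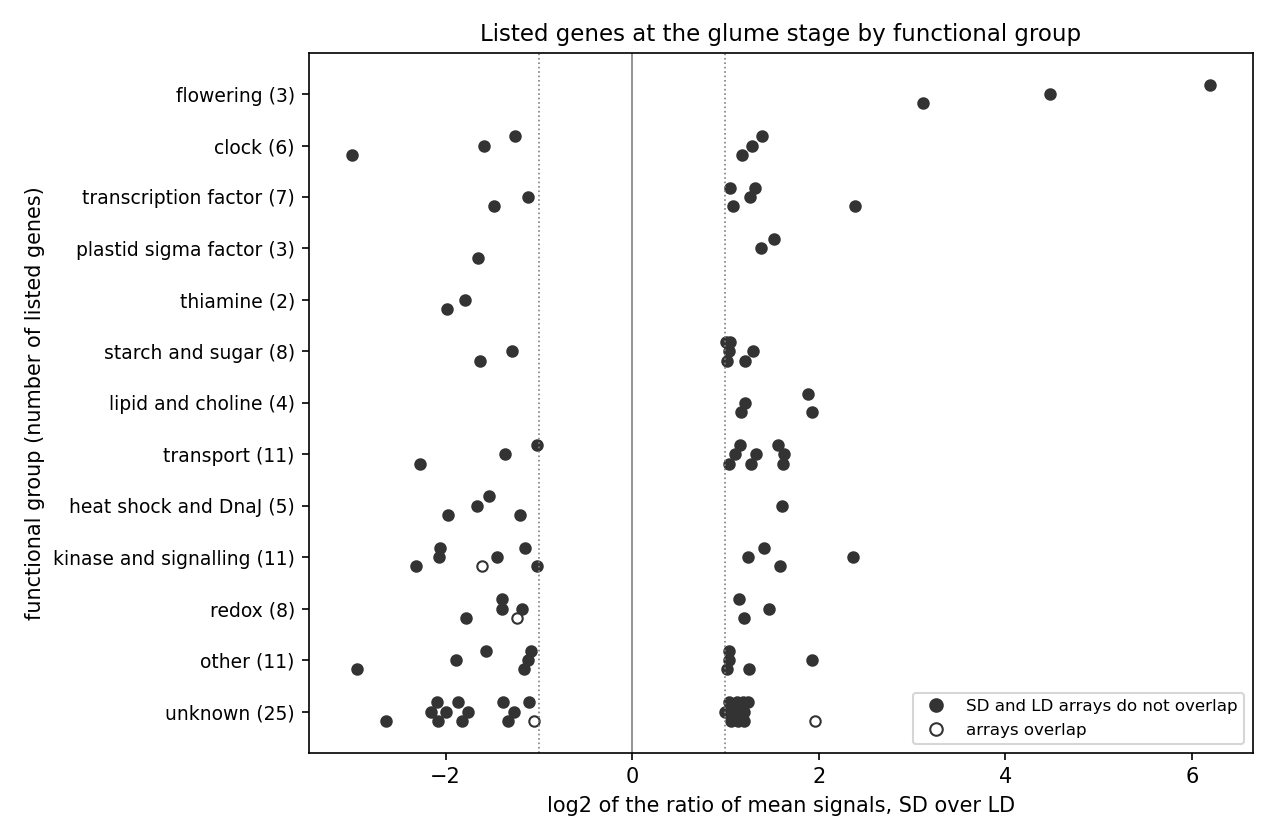
Log2 of the ratio of mean signals, SD over LD (x axis), of all but 1 of the 105 listed genes in their functional groups (y axis), with filled points where SD and LD arrays do not overlap and open points for the 4 genes where they do. Dotted lines mark the 2-fold limit of the list, and the flowering genes stand to the far right, at ratios of 8.68 to 73.1.

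The LD arrays differed among themselves in a set of the genes higher in SD. LD repeat 2 read more than 1.5 times both other LD arrays in 11 of the 57 genes, among them OsDof, LOC_Os06g51260, Hox22, the RPT2-like gene and the amino acid-polyamine transporter. LD repeat 1 did so in 4 genes and LD repeat 3 in 3. For these 11 genes the same-number ratio was smallest in repeat 2, which follows largely from their choice by a high LD repeat 2. Across the higher genes the median same-number ratio was 2.72, 2.35 and 2.81 for repeats 1, 2 and 3, and across the lower genes 0.31, 0.325 and 0.336.

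Of the 105 genes, 30 were also listed at the pistil/stamen stage, where 201 genes were, and 28 of them had the same direction. The stages have separate arrays and separate controls, but each list was cut by fold and the tables may have been normalised apart, so the ratios are given side by side without a test. The flowering genes kept ratios of this order. Hd3a was 73.1-fold higher in SD at the glume stage and 39.2-fold at the later stage, Ehd1 22.4-fold and 21.4-fold against dim LD signals at each, and OsMADS1 8.68-fold and 10.8-fold. Of the clock genes, LOC_Os06g51260 (2.62 and 4.36) and OsLUX (0.42 and 0.287) were listed at both, whereas OsLHY, LOC_Os02g46030, OsGI and OsPRR37 were listed at the glume stage and not at the later one. ThiC had ratios of 0.288 and 0.205, and THI1 was listed at the glume stage alone. Of the starch synthases none was listed again. The exceptions in direction were oligopeptide transporter 4 and receptor-like protein kinase 5, lower in SD at the glume stage and higher at the later one.

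**Figure D4:**
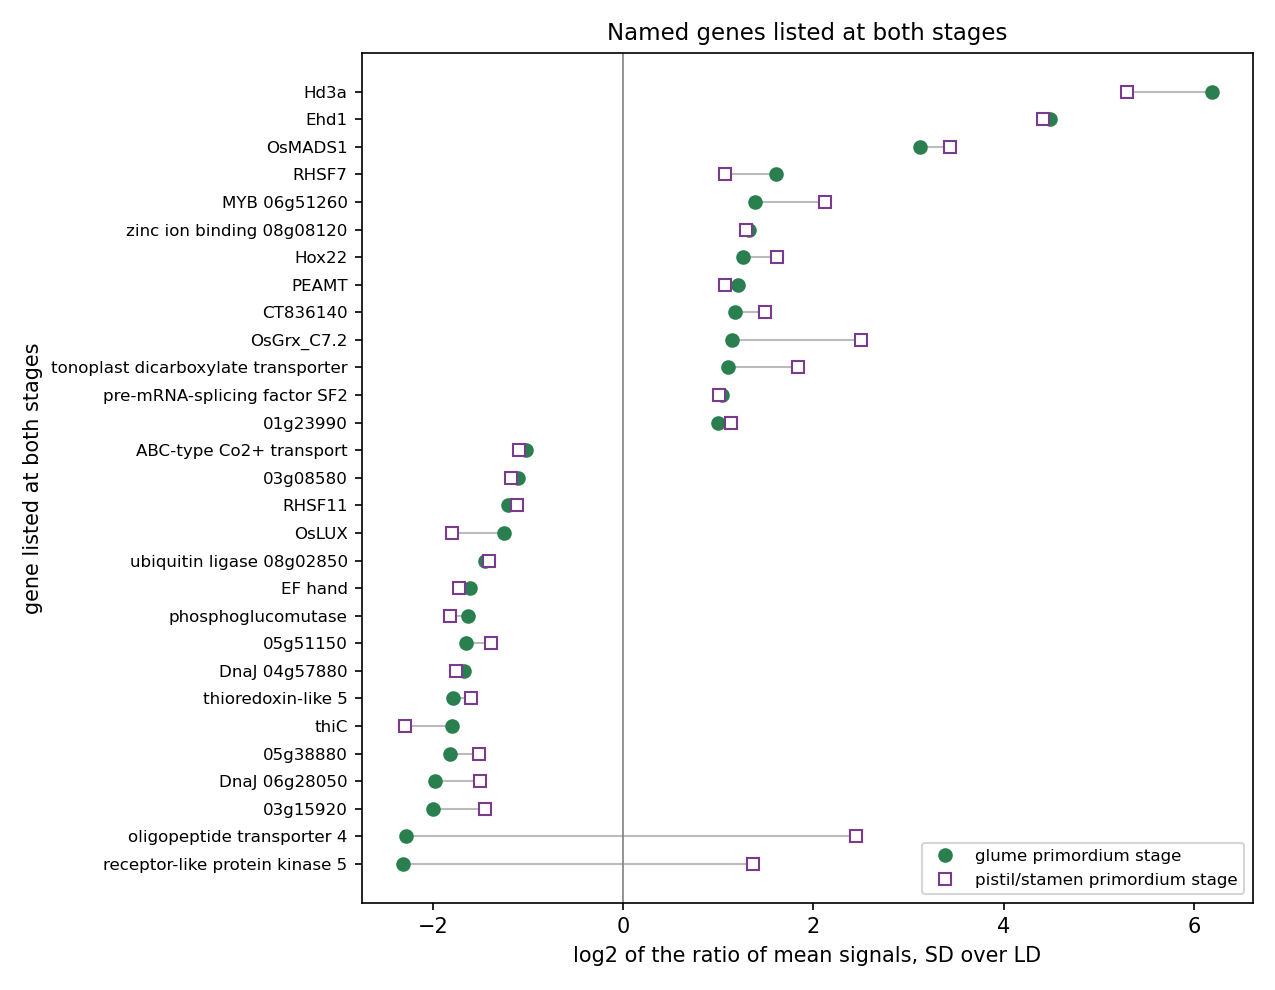
Log2 of the ratio of mean signals, SD over LD (x axis), at the glume primordium stage (filled circles) and the pistil/stamen primordium stage (open squares) for the named genes listed at both stages (y axis). Oligopeptide transporter 4, at ratios of 0.206 and 5.45, and receptor-like protein kinase 5, at 0.201 and 2.57, lie on opposite sides of 0, and all other named genes lie on 1 side.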

How the data were processed

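Leaf RNA of 12 samples was measured on Affymetrix rice arrays, and the 6 of the glume stage are described. The authors deposited linear signal intensity for 57381 probe sets; the methods name GCOS 1.4 and then invariant-set normalisation in dChip, without saying which step these values follow. They also deposited, for each stage, signal intensity of genes past a 2-fold limit, described as normalised in dChip by an invariant set of probe sets, with columns of their own fold and P values that were not used. Values are relative to other arrays of the same table only. No detection calls were used, and probe sets are not paired with genes.

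Controls (187) were left out, log2 signals were quantile normalised, and the 25360 probe sets that reached an array's 60th percentile on 3 or more arrays were fitted with limma 3.58.1 in R 4.3.3 (lmFit, eBayes with a trend, 4 group coefficients over 12 arrays, two-sided, Benjamini-Hochberg). The comparison over the whole array thus borrows its spread from all 4 groups. Listed genes were fitted on log2 of the authors' signals of the 6 arrays, and adjusted as if 57194 probe sets had been tested, everything not listed being taken to have a larger p; the spread came from the listed genes alone. Ratios are of group means. The p-values reflect spread between repeats, whose precision 3 arrays a group limit. Scripts were tested on simulated data. The members, groups and gene lists were chosen with earlier results of these data known. Genes named are the members of the functional groups, those past the test over the array, and the 10 highest and 10 lowest ratios, with genes of unknown function only from these or with nearest arrays 2-fold apart; LOC_Os01g23990, LOC_Os05g05060 and LOC_Os01g43230 were chosen after their values were seen, and AK-numbered or CT-numbered entries carry no locus in the table. The result of 1 gene is not reported here. Promoter motifs, protein sequences and leaf markers were not analysed here.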

Additional observations from a re-analysis of the deposited data

Results flagged for a closer look

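Oligopeptide transporter 4 (LOC_Os02g46850) and receptor-like protein kinase 5 (LOC_Os02g13430) had opposite directions at the stages, with every SD array on 1 side of every LD array at each stage. For oligopeptide transporter 4 the ratio of SD over LD was 0.206 at the glume stage and 5.45 at the pistil/stamen stage. At the later stage it read 746, 739.6 and 182 on the SD arrays, against 85.4, 118 and 103 on the LD arrays. For receptor-like protein kinase 5 the ratios were 0.201 and 2.57, and the later stage gave 397, 339 and 392 in SD, against 59.9, 66.9 and 313 in LD. LD repeat 3 was thus close to SD there. The difference between the stages was not tested, because the tables may have been normalised apart.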

How the results depend on the processing

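Over the whole array, the 2 calls at an adjusted p under 0.05 became 0 with median centring, with the 6 glume-stage arrays alone, with the methods' t-test and with repeat numbers as a block, and 0 to 2 when 1 array was left out. Dim probe sets carried much of the unadjusted count. With no filter, 867 were 2-fold higher and 834 lower at an unadjusted p under 0.05; a 75th percentile filter gave 87 and 47, and log2(signal + 16) gave 82 and 47. The lower count was 173 with array weights, 222 with the block and 175 with weights on the 6 arrays, an alternative chosen after seeing the data that made 2 adjusted calls, 1 of them shared with the fit reported. Leaving out 1 array gave 152 to 295 higher and 118 to 202 lower, with 295 without LD repeat 2 and 202 without SD repeat 3. With signals as deposited the split was 236 higher and 94 lower. Between the stages, 1389 unadjusted calls were made with signals as deposited, and 1 adjusted call with array weights. The 2 listed genes past the test over the array became 1 with log2(signal + 16), 1 with the methods' t-test and 1 to 2 with an array left out (2 without SD repeat 3, otherwise 1); median centring and the block each gave 3. The causes were not tested. No ratio of a named listed gene, and neither log2 difference of the 2 called probe sets, turned its sign under any alternative run. For the listed genes this was largely fixed by their choice by fold on these arrays. In 101 of the 105 the SD and LD arrays did not overlap, and most of the alternatives cannot turn the sign of such a gene. Whether the repeat numbers pair the samples is not known. Same-numbered SD and LD arrays correlated at 0.203, -0.001 and 0.325 in their deviations from the group means. The LD array closest to SD repeats 1, 2 and 3 in these deviations was repeat 2, 1 and 3. With 3 arrays a group these values cannot decide the question.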

Other observations

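Some listed genes lie close together by locus number on the same chromosome. Among pairs whose numbers differ by at most 150, LOC_Os05g05030 and LOC_Os05g05060 on chromosome 5 had ratios of SD over LD of 0.235 and 0.296, and LOC_Os08g41850 and yciO (LOC_Os08g41910) on chromosome 8 had 0.224 and 0.129. The phosphoglucomutase-family gene LOC_Os06g28194 and the ferredoxin and DnaJ gene LOC_Os06g28050 on chromosome 6 had 0.324 and 0.254. LOC_Os01g43220 and LOC_Os01g43230 on chromosome 1, whose numbers differ by 10, were higher in SD at 2.05 and 2.3. Each of these pairs shared a direction, beside 57 higher and 48 lower genes among all 105 listed. The limit of 150 was not among the planned settings, and the shared direction was not tested. Whether probe sets of neighbouring genes share sequence or transcripts was not examined.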
